A study of Sus scrofa with 6 samples.

Results

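Cytosolic ribosomal protein genes were compared between pig pluripotent stem cells and pig fibroblasts. They were the rows of the expression table whose pig gene symbol was RPL or RPS followed by a number, with at most an A, X, Y or L and digit after it, together with RPLP0, RPLP1, RPLP2 and RPSA; the RPS6 kinases were left out. This rule, which uses names and no measured value, gave 44 genes of 20132 rows, 23 of the small subunit and 21 of the large subunit. A human set of 77 cytosolic ribosomal proteins had 42 genes among them, and the 2 further members were the paralogs RPL7L1 and RPL26L1. The other 35 of the human set, RPS6, RPS14, RPS19, RPL10 and RPL13A among them, matched no row by symbol and were not analysed here.

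The tested cells were pgEpiSC, stem cells derived from the epiblast of pig embryos at embryonic day 10, before gastrulation, with 4 libraries. They were set against pEF, porcine embryonic fibroblasts from fetuses at embryonic day 30, with 2 libraries. The libraries of each kind were described as biological replicates, and the labels used here give no genotype, treatment, culture medium or number of lines or animals for either kind. Total RNA was depleted of ribosomal RNA, sequenced with strand information on a HiSeq instrument, and deposited as TPM, transcripts per 1000000, a unit corrected for transcript length so that levels of different genes can be set side by side. TPM keeps no read depth; the labels give only an average over the libraries, 127.83 M raw reads.

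Each ribosomal protein is made from its own gene and is used once, or for the stalk proteins in several copies, per ribosome. The small subunit reads the messenger RNA and the large subunit joins amino acids, and proliferating cells spend a large part of their messenger RNA on these proteins. The mRNAs carry a 5′ terminal oligopyrimidine (TOP) tract, through which mTORC1 and LARP1 set their translation, and proteins made in excess of the ribosomes they join are degraded. In humans, loss of 1 copy of several of these genes causes Diamond-Blackfan anaemia, and free RPL5 and RPL11 bind MDM2, the inhibitor of p53.

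The cell labels were checked against marker genes. Pluripotency markers (6 of 8 in the table, without POU5F1 and SOX2) summed to 440, 1787, 756 and 402 TPM in pgEpiSC 1 to 4, against 0.115 and 0.660 TPM in pEF 1 and 2, where LIN28A and PRDM14 were listed at 0. Fibroblast markers (7 of 8 in the table) summed to 1.91 to 6.33 TPM in pgEpiSC, against 469 and 1282 TPM in pEF. Muscle markers (4 of 4) summed to 1.91 to 3.95 TPM in pgEpiSC, against 25.0 and 222 TPM in pEF, mostly desmin (DES) there. A hypoblast and trophectoderm list (7 of 8), led by KRT8 and KRT18 with GATA4, GATA6 and CDX2 below 1 TPM in each library, summed to 52.9 to 316 TPM in pgEpiSC, against 0.453 and 1.13 TPM in pEF. Neural markers (3 of 4) summed to 11.4 to 45.1 TPM in pgEpiSC, against 9.25 and 37.0 TPM in pEF, and endothelial (4 of 4) and blood markers (5 of 5) to below 1 TPM in each library. The part of these other markers in the results was not tested. The listed genes summed to 157288, 320206, 209030 and 166208 TPM in pgEpiSC 1 to 4 and to 93556 and 145611 TPM in pEF 1 and 2, so the libraries did not share a scale. Factors from median ratios were taken over the genes above 0 TPM in every library. They were 0.697, 2.15, 1.61 and 0.722 in pgEpiSC 1 to 4 and 0.569 and 0.944 in pEF 1 and 2. These factors set pgEpiSC 2 and 3 apart from pgEpiSC 1 and 4. What part these differences in sums and factors had in each result below was not tested beyond the scalings given beside it.

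Ribosomal protein mRNAs were among the most abundant in both kinds of cells. Summed over the 44 genes they reached 24214, 36393, 26424 and 24515 TPM in pgEpiSC 1 to 4, against 10511 and 14073 TPM in pEF 1 and 2. Each pgEpiSC library thus lay above each pEF library, with means of 27886 ± 5755 TPM (SD, n = 4) in pgEpiSC and 12292 ± 2519 TPM (SD, n = 2) in pEF. As a share of all listed TPM the genes held 15.4, 11.4, 12.6 and 14.7% in pgEpiSC, against 11.2 and 9.66% in pEF. The lowest pgEpiSC library, pgEpiSC 2, was almost level with pEF 1 in this share. After median-ratio scaling the sums were 34750, 16915, 16394 and 33971 in pgEpiSC, against 18458 and 14906 in pEF, and the groups overlapped, with pgEpiSC 1 and 4 well above the other libraries. TPM is relative to the RNA of each library, so these sums do not give the amount of ribosomal protein mRNA per cell.

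Within a library the members spanned more than 100-fold in level, a span that rests on the paralog RPL7L1, the lowest member in every library. The lowest was 14.9 to 19.5 TPM in the pgEpiSC libraries and 6.39 and 8.26 TPM in the pEF libraries, and the highest 2203 to 2655 TPM in pgEpiSC and 1035 and 1139 TPM in pEF. The median member stood at 313, 543, 376 and 355 TPM in pgEpiSC, against 166 and 198 TPM in pEF. All 44 genes were above 1 TPM in every library, and all 44 passed the filter of the test. Of the 100 most abundant genes, 25 to 27 in each pgEpiSC library and 23 and 21 in pEF 1 and 2 were members. The 10 most abundant members held 51.2 to 57.9% of the summed members in pgEpiSC and 52.6 and 50.6% in pEF. Paralogs aside, assembled ribosomes hold these proteins in equal number apart from the stalk. Reads from processed pseudogenes and close paralogs, which are many in this family, could be shared among genes, and the levels of single members are uncertain to that extent.

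**Figure D1:**
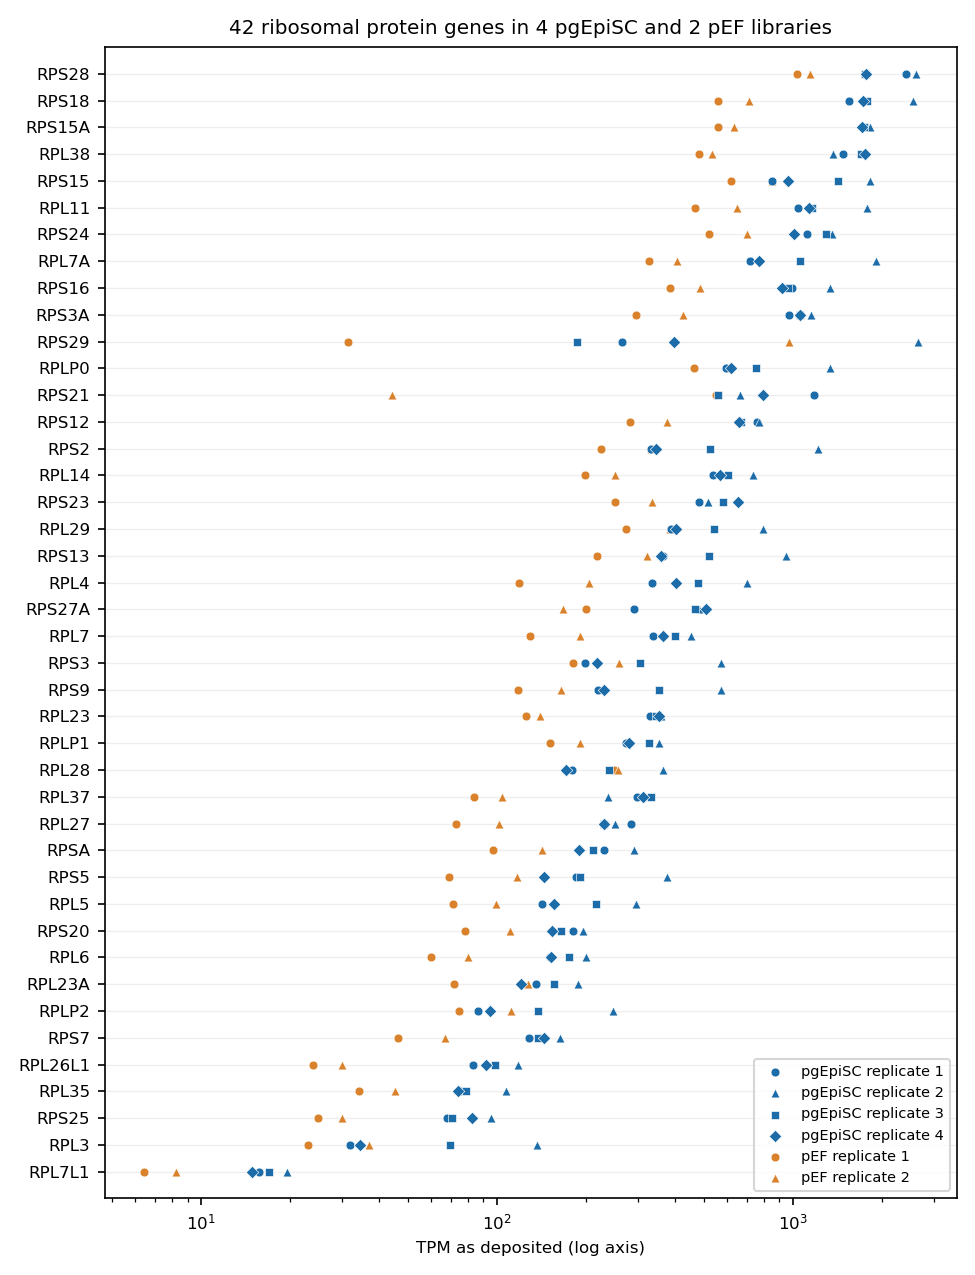
TPM as deposited (x axis, log scale) of 42 of the ribosomal protein genes (rows, ordered by mean TPM) in each library; blue marks are the 4 pgEpiSC libraries and orange marks the 2 pEF libraries. In 33 of these genes every pgEpiSC mark lies right of both pEF marks; RPS29 and RPS21 have their pEF marks far apart.

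On the deposited scale, 26 of the 44 genes were called higher in pgEpiSC and 0 lower by limma at a Benjamini-Hochberg adjusted p below 0.05 (34 genes at an unadjusted p below 0.05). Of all 10424 genes tested, 18.0% were called higher and 9.43% lower. Mean TPM was higher in pgEpiSC for 43 of 44 genes, with ratios of 0.943 to 3.63 and a median of 2.34. The median log2 fold on the log2(TPM + 1) scale was 1.19 for the members and 0.48 for all tested genes. In 34 genes all pgEpiSC libraries exceeded both pEF libraries and in 0 the reverse held, against 36.6% and 12.9% of all tested genes. Among the 4132 genes with a mean of at least 5 TPM, where the members lie, 28.7% were called higher and 8.91% lower, and the median fold was 0.75. The 26 called genes were 14 of the small and 12 of the large subunit.

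This count depended on single libraries and on the scale. It was 24, 27, 16 and 20 without pgEpiSC 1, 2, 3 or 4, and 3 and 14 without pEF 1 or pEF 2. Only RPL38 and RPS15A were called with each library left out in turn. After median-ratio scaling 1 gene was called higher, RPL26L1, and 0 lower (2 at an unadjusted p below 0.05), while 27.0% of all tested genes were called higher and 30.9% lower. The members' median fold was then 0.55, against 0.02 for all tested genes, and 38 of 44 folds stayed above 0. The members' median lay 0.71 above that of all tested genes as deposited, 0.53 above it after median-ratio scaling, 0.52 above it after rescaling each library to 1000000 and 0.18 above it after quantile normalization. Against the median of all tested genes, 41, 37, 37 and 27 of the 44 members were higher under those 4 scalings.

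**Figure D2:**
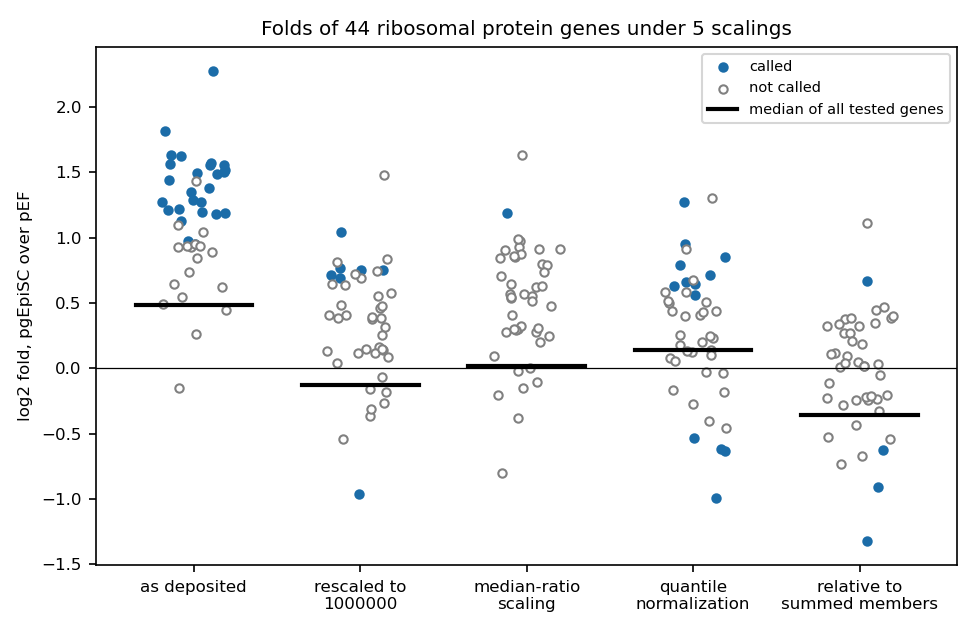
Log2 fold of pgEpiSC over pEF (y axis) for the 44 ribosomal protein genes (points, spread sideways at random) under 5 scalings; filled points were called by limma and the bar is the median of all tested genes. From left to right 41, 37, 37, 27 and 36 of the 44 points lie above the bar.

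Several abundant small subunit genes lay well above pEF in each pgEpiSC library. RPS15A, a small subunit protein, had 1738, 1823, 1738 and 1708 TPM in pgEpiSC, against 557 and 635 TPM in pEF, a log2 fold of 1.56 ± 0.35 (SE; limma, adjusted p = 0.000795). RPS18, a protein of the head of the small subunit, had 1544, 2547, 1787 and 1731 TPM in pgEpiSC, against 559 and 713 TPM in pEF (1.56 ± 0.36, limma adjusted p = 0.000926; 0.0765 without pEF 1). In both of them the pgEpiSC libraries stood well clear of pEF, and pgEpiSC 2 exceeded the other pgEpiSC libraries clearly in RPS18. RPS16, whose tail reaches the transfer RNA in the ribosome, had 991, 1333, 967 and 920 TPM in pgEpiSC, against 383 and 485 TPM in pEF (1.27 ± 0.37, limma adjusted p = 0.00864; 0.163 and 0.0515 without pEF 1 or pEF 2).

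RPS28, which lines the path by which mRNA leaves the small subunit, was the most abundant member over the 6 libraries, at 2421, 2600, 1752 and 1764 TPM in pgEpiSC, against 1035 and 1139 TPM in pEF. RPS24, a Diamond-Blackfan gene, had 1118, 1360, 1296 and 1012 TPM in pgEpiSC, against 522 and 702 TPM in pEF. The groups did not overlap in either gene, and both calls were close to the threshold. Their log2 folds were 0.95 ± 0.35 (adjusted p = 0.0370) for RPS28 and 0.97 ± 0.36 (adjusted p = 0.0409) for RPS24, and both calls were lost without any single library other than pgEpiSC 2, at limma adjusted p of 0.0602 to 0.268 and 0.0715 to 0.335. RPS15, near the decoding centre, had 848, 1819, 1426 and 967 TPM in pgEpiSC, against 616 and 850 TPM in pEF. Its groups overlapped, since pgEpiSC 1 lay just under pEF 2, and it was not called (0.74 ± 0.38, limma adjusted p = 0.140). After quantile normalization RPS28 (-0.63, adjusted p = 0.0334) and RPS15 (-0.62, adjusted p = 0.0491) were called lower in pgEpiSC by limma.

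Large subunit genes showed the same spread of sizes. RPL38, which is needed for the translation of Hox mRNAs in the mouse, had 1475, 1365, 1699 and 1757 TPM in pgEpiSC, against 483 and 532 TPM in pEF (1.63 ± 0.36, limma adjusted p = 0.000568). RPL7A had 716, 1916, 1062 and 769 TPM in pgEpiSC, against 326 and 406 TPM in pEF (1.50 ± 0.40, limma adjusted p = 0.00397; 0.175 and 0.0723 without pEF 1 or pEF 2). In RPL38 pgEpiSC 2 was the lowest pgEpiSC library, and in RPL7A it was the highest by far. The 5S ribonucleoprotein genes, whose products dock the 5S ribosomal RNA, were RPL11 and RPL5. RPL11 had 1038, 1784, 1163 and 1131 TPM in pgEpiSC, against 466 and 647 TPM in pEF (1.18 ± 0.37, limma adjusted p = 0.0143; 0.251 and 0.0655 without pEF 1 or pEF 2). RPL5 had 142, 294, 216 and 155 TPM in pgEpiSC, against 71.0 and 99.2 TPM in pEF (1.20 ± 0.44, limma adjusted p = 0.0355), a call lost without pgEpiSC 3, pgEpiSC 4 or either pEF library at 0.0549 to 0.318. Neither gene overlapped between groups, and together they held nearly the same share of the summed members, 5.26 ± 0.345% in pgEpiSC (SD, n = 4) and 5.20 ± 0.136% in pEF (SD, n = 2).

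At the low end stood RPS25, RPL3 and RPL7L1. RPS25, which initiation at some internal ribosome entry sites needs, had 67.7, 95.5, 70.5 and 82.7 TPM in pgEpiSC, against 24.8 and 29.9 TPM in pEF (1.49 ± 0.46, limma adjusted p = 0.0128; lost without pgEpiSC 3 or either pEF library at 0.0542 to 0.133). RPL3, a large subunit protein close to the catalytic centre, had 31.9, 136, 69.1 and 34.5 TPM in pgEpiSC, against 23.1 and 37.1 TPM in pEF, and was not called (0.94 ± 0.51, limma adjusted p = 0.173). Its spread among pgEpiSC libraries was wider than the gap to pEF. RPL7L1, a paralog of RPL7, was the least abundant member, at 15.7, 19.5, 16.9 and 14.9 TPM in pgEpiSC, against 6.39 and 8.26 TPM in pEF (1.10 ± 0.51, limma adjusted p = 0.104).

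To ask how the make-up of the set differed, each gene was read as a share of the summed members in its library, and the fit was repeated after scaling each library to an equal sum. The small subunit held 69.0, 67.1, 65.5 and 67.0% of the sum in pgEpiSC, against 66.7 and 67.6% in pEF, with overlapping groups and means of 67.2 ± 1.45% in pgEpiSC (SD, n = 4) and 67.1 ± 0.658% in pEF (SD, n = 2). Relative to the sum, 1 member was called higher in pgEpiSC and 3 lower, and 40 were not called, by limma with Benjamini-Hochberg adjustment over all tested genes (9 at an unadjusted p below 0.05). With 1 library left out the counts were 0 to 1 higher and 1 to 2 lower, except without pgEpiSC 2, where they were 7 and 8. On this scale 10.9% of all tested genes were called higher and 30.5% lower, and the median fold was 0.03 for the members and -0.35 for all tested genes. Because the scaling makes the summed members equal, a member median near 0 is largely set by it. The gap to all tested genes is therefore not a finding separate from that on the deposited scale. In 27 members the shares overlapped between groups, in 6 each pgEpiSC library was higher and in 11 each was lower, against 18.3% and 40.2% of all tested genes. The 6 were RPS18, RPS16, RPS3A, RPL14, RPL26L1 and RPS25. The 11, which are 7 large and 4 small subunit genes, included RPL28, RPS3, RPLP2, RPLP0, RPL23A, RPL29, RPS15, RPLP1, RPS24 and RPL35.

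RPL28 stood out in the make-up. RPL28 (ENSSSCG00000039460), a large subunit protein with no counterpart in budding yeast, had 179, 364, 239 and 171 TPM in pgEpiSC, against 249 and 256 TPM in pEF. It was the one member whose mean TPM was not higher in pgEpiSC (238 ± 89.1 TPM, SD, n = 4, against 252 ± 4.74 TPM in pEF, SD, n = 2; log2 fold -0.15 ± 0.42, limma adjusted p = 0.815). Its share was 0.738, 0.9996, 0.904 and 0.698% in pgEpiSC, against 2.37 and 1.82% in pEF, so the highest pgEpiSC library lay far under the lower pEF library. Relative to the sum it was lower in pgEpiSC by a log2 fold of -1.33 ± 0.24 (limma adjusted p = 0.00115), and it was called with each library left out in turn, at -1.52 to -1.13. Its fold was also below 0 after median-ratio scaling (-0.80, adjusted p = 0.108), after rescaling to 1000000 (-0.96, adjusted p = 0.00564) and after quantile normalization (-0.99, adjusted p = 0.00339) in limma.

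RPLP0 was also called lower relative to the sum. RPLP0 (ENSSSCG00000036014), the base of the stalk, held 2.46, 3.68, 2.84 and 2.52% of the sum in pgEpiSC, against 4.40 and 4.37% in pEF. Its fold relative to the sum was -0.63 ± 0.21 (limma adjusted p = 0.0360), against 0.55 as deposited. The RPLP0 call was lost without any single library other than pgEpiSC 2 (adjusted p = 0.0785 to 0.175) and with no filter, with a variance without trend or with a replicate block (limma adjusted p = 0.109 to 0.154).

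The 3 stalk proteins, which recruit the elongation factors to the large subunit, each held a smaller share in every pgEpiSC library than in either pEF library. Together they held 3.94, 5.33, 4.59 and 4.05% of the sum in pgEpiSC, against 6.55 and 6.52% in pEF, without overlap, with means of 4.48 ± 0.634% in pgEpiSC (SD, n = 4) and 6.54 ± 0.0215% in pEF (SD, n = 2). RPLP1 held 1.13, 0.968, 1.24 and 1.14% in pgEpiSC, against 1.44 and 1.35% in pEF, and RPLP2 held 0.358, 0.677, 0.519 and 0.385% in pgEpiSC, against 0.710 and 0.795% in pEF. RPLP0 and RPLP2 had their highest pgEpiSC share in pgEpiSC 2, and RPLP1 had its lowest there. RPLP1 and RPLP2 were not called relative to the sum (RPLP1 -0.32, adjusted p = 0.232; RPLP2 -0.67, adjusted p = 0.0814, in limma). On the deposited scale none of the stalk genes was called: RPLP0 had 595, 1340, 749 and 619 TPM in pgEpiSC, against 462 and 616 TPM in pEF, RPLP1 274, 352, 327 and 279 TPM in pgEpiSC, against 152 and 190 TPM in pEF, and RPLP2 86.6, 246, 137 and 94.5 TPM in pgEpiSC, against 74.7 and 112 TPM in pEF. Other parts of the ribosome were read in the same way. Proteins of the mRNA entry and exit channels (RPS2, RPS3 and RPS28 in the table) held 10.9 ± 1.44% in pgEpiSC and 13.0 ± 0.996% in pEF, those of the decoding centre (RPS15 and RPS23) 6.53 ± 0.866% in pgEpiSC and 8.33 ± 0.119% in pEF, and those around the peptide exit tunnel (RPL4, RPL23A and RPL35) 2.53 ± 0.230% in pgEpiSC and 2.41 ± 0.387% in pEF (SD, n = 4 and n = 2). Of these sums the first and the second did not overlap between groups, and the last did. The first nearly touched, at 12.2% in pgEpiSC 1 against 12.3% in pEF 2. The second stood at most at 7.60%, in pgEpiSC 3, against 8.24% in pEF 1. Of the genes in the first and second sums, RPS3 and RPS15 had shares without overlap, and the shares of RPS2, RPS28 and RPS23 overlapped.

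RPL26L1 (ENSSSCG00000016989), a near-identical paralog of RPL26, a protein at the tunnel exit, was the member called higher relative to the sum. It had 83.2, 118, 98.7 and 92.2 TPM in pgEpiSC, against 24.0 and 29.9 TPM in pEF, and held 0.344, 0.324, 0.374 and 0.376% of the sum in pgEpiSC, against 0.228 and 0.213% in pEF. Each pgEpiSC library lay above both pEF libraries on both scales. Its log2 fold was 1.82 ± 0.45 as deposited (limma adjusted p = 0.00218; 0.0563 without pEF 1), 1.19 ± 0.42 after median-ratio scaling (adjusted p = 0.0411) and 0.67 ± 0.23 relative to the sum (adjusted p = 0.0369). The call after median-ratio scaling was lost without pgEpiSC 1, pgEpiSC 4 or either pEF library, at limma adjusted p of 0.0787 to 0.242. The call relative to the sum was lost without any single library other than pgEpiSC 2, at limma adjusted p of 0.0698 to 0.156, and under a variance without trend or a replicate block at 0.0680 and 0.184. RPL26 itself matched no row by symbol, so the ratio of the pair was not analysed here. Reads of the pair may be assigned to this gene, which was not tested. For RPL7L1, the other paralog, the ratio to RPL7 was 4.67, 4.31, 4.24 and 4.10% in pgEpiSC, against 4.95 and 4.31% in pEF, a log2 difference of -0.19 (exact two-sided permutation test, p = 0.133, where the 15 splits of 4 against 2 allow no p below 0.0667).

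**Figure D3:**
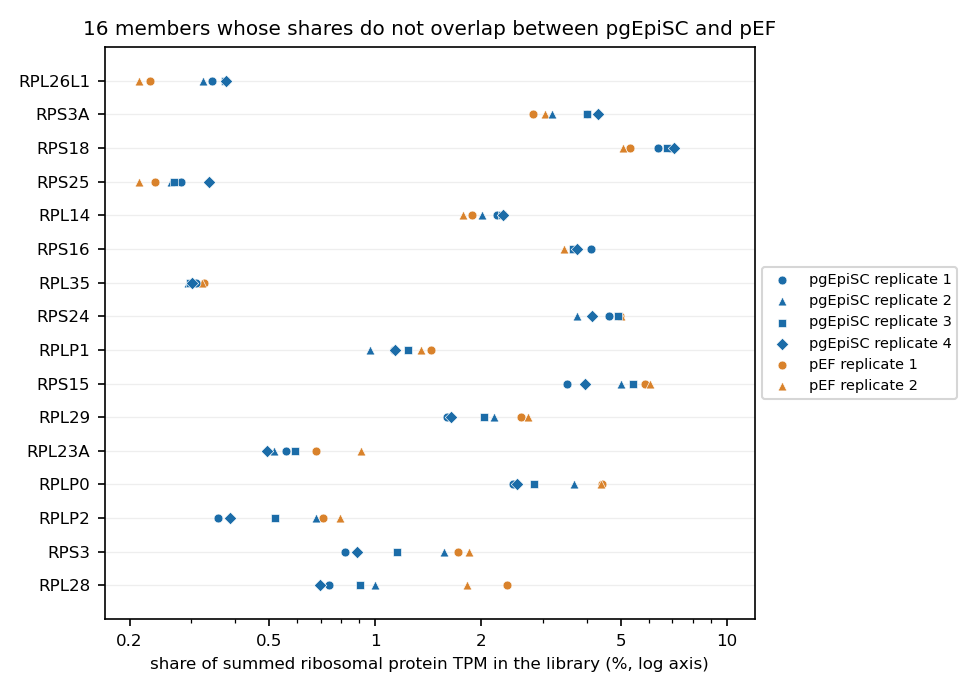
Share of the summed ribosomal protein TPM (x axis, percent, log scale) for 16 genes whose groups did not overlap in share (rows, ordered by ratio); blue marks are the 4 pgEpiSC libraries and orange marks the 2 pEF libraries. The top 6 genes have all pgEpiSC marks to the right of pEF and the lower 10 to the left, with RPL28 showing the widest gap.

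Some other members had shares that did not overlap without being called. RPS3, at the mRNA entry channel, held 0.819, 1.57, 1.16 and 0.889% in pgEpiSC, against 1.72 and 1.84% in pEF (-0.73 ± 0.27, limma adjusted p = 0.0522). RPL29, a surface protein of the large subunit, held 1.59, 2.18, 2.04 and 1.64% in pgEpiSC, against 2.596 and 2.72% in pEF (-0.52 ± 0.21, limma adjusted p = 0.0672). RPL23A, where nascent chains meet the signal recognition particle, held 0.559, 0.514, 0.591 and 0.492% in pgEpiSC, against 0.679 and 0.908% in pEF (-0.54 ± 0.23, limma adjusted p = 0.0793). Among the 11 lower members, the pgEpiSC library nearest pEF was pgEpiSC 2 in 6, pgEpiSC 3 in 4 and pgEpiSC 1 in 1. Among the 6 higher members RPS3A held 4.00, 3.17, 4.00 and 4.30% in pgEpiSC, against 2.80 and 3.03% in pEF (0.40 ± 0.19, limma adjusted p = 0.126).

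The pgEpiSC libraries differed from one another in make-up as well as in scale. Set over the mean of pgEpiSC 1 and 4, the median member stood at 1.36 in pgEpiSC 2 and at 1.12 in pgEpiSC 3, against 3.13 and 2.10 for all tested genes, while pgEpiSC 4 over pgEpiSC 1 had a median of 1.05, with 38 of 44 members between 0.8 and 1.25. In pgEpiSC 2 this ratio ran from 0.673 in RPS21 to 8.03 in RPS29, and 14 members were above 2. Of the 44 genes 37 were highest in pgEpiSC 2, and 40 were lowest in pEF 1. Without pgEpiSC 2, the fit relative to the sum called 7 members higher (among them RPS18, RPS3A, RPS15A, RPL38, RPL37 and RPL26L1) and 8 lower (among them RPL28, RPS3, RPLP2, RPLP0, RPL29, RPS2 and RPS15), where 10% and 35.5% of all tested genes were called. The 8 lower members had ratios of 2.00 to 3.60 in pgEpiSC 2 over the mean of pgEpiSC 1 and 4, and the 7 higher had ratios of 0.776 to 1.56. The part of this library in the difference between the fits was not tested.

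**Figure D4:**
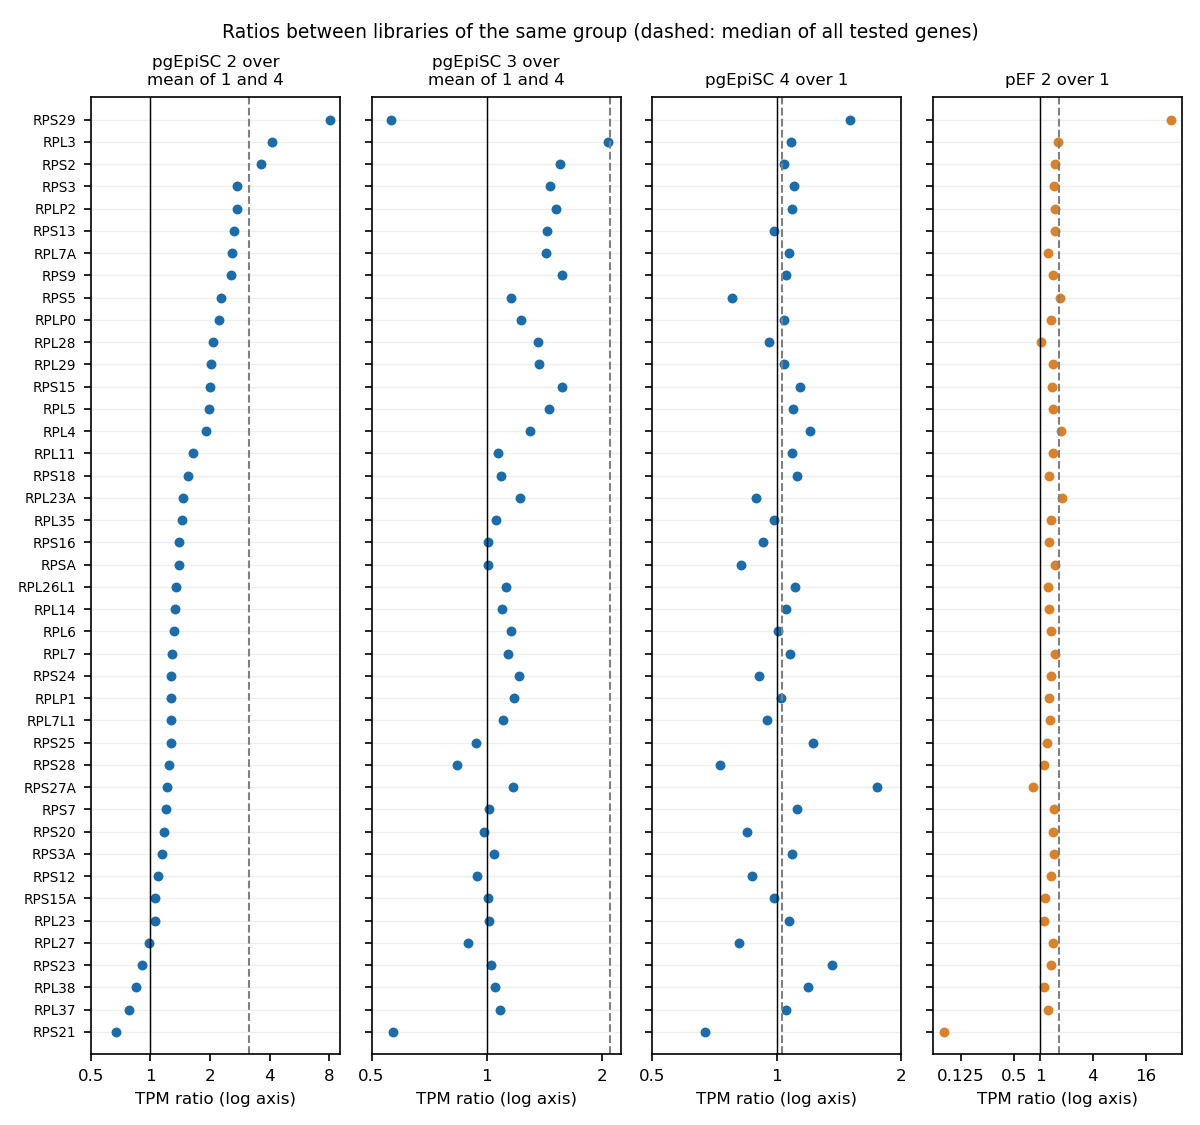
TPM ratios between libraries of the same group (x axes, log scale) for 42 of the ribosomal protein genes (rows, in the same order in each panel), with the median of all tested genes as a dashed line. Ratios in pgEpiSC 2 range from 0.673 to 8.03 and mostly lie left of the dashed line, and in pEF RPS29 and RPS21 lie far from the other members.

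Within a group, members differed in how steady their share was. The highest share over the lowest had a median of 1.45 over the members in pgEpiSC and 1.07 in pEF, and it was below 1.5 for 25 members in pgEpiSC and for 41 in pEF. It was above 2 for 4 members in pgEpiSC, RPS29, RPL3, RPS21 and RPS2, and for RPS29 and RPS21 in pEF. RPS29 (ENSSSCG00000038507), a small zinc-binding protein and a Diamond-Blackfan gene, had 264, 2655, 186 and 397 TPM in pgEpiSC, against 31.3 and 969 TPM in pEF. RPS21 (ENSSSCG00000021825), a small subunit protein, had 1181, 664, 560 and 792 TPM in pgEpiSC, against 552 and 44.3 TPM in pEF. RPS29 was high in pgEpiSC 2 and pEF 2 and low in the other libraries, and RPS21 was low in pEF 2 alone; pEF 2 over pEF 1 was 30.9 for RPS29 and 0.0803 for RPS21, against a median of 1.36 for the members. RPS21 was called higher as deposited (2.28 ± 0.52, limma adjusted p = 0.000865), with a fold of 0.48 (adjusted p = 0.538) without pEF 2 and of 4.08 without pEF 1. RPS29 was not called (1.43 ± 0.71, limma adjusted p = 0.130). Both genes were singled out after their values were seen.

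Ribosomal proteins outside the naming rule were read beside the members, and 4 of the 6 in the table passed the filter. FAU and RPL3L did not, and FAU was listed at 0.156 to 1.17 TPM over the libraries. RPS27L, a paralog of RPS27, had 10.3 to 14.3 TPM in pgEpiSC, against 10.2 and 12.8 TPM in pEF (0.04 ± 0.51, limma adjusted p = 0.960). Relative to the sum its fold was -1.05 ± 0.27 (limma adjusted p = 0.00962). RPL36AL, a paralog of RPL36A, had 63.1, 65.3, 65.0 and 64.4 TPM in pgEpiSC, against 13.5 and 17.5 TPM in pEF (2.00 ± 0.47, limma adjusted p = 0.00116), and was called with each library left out in turn, at 1.82 to 2.17. Relative to the sum its fold was 0.87 ± 0.26 (limma adjusted p = 0.0218), a call lost without pgEpiSC 1, pgEpiSC 4 or either pEF library at 0.0537 to 0.117. RPL10L, known in human and mouse as a copy of RPL10 used in the testis, had 10.9, 3.55, 2.69 and 18.6 TPM in pgEpiSC, against a listed 0 and 0.0210 TPM in pEF (2.97 ± 0.61, limma adjusted p = 0.000227; 0.0850 and 0.0677 without pEF 1 or pEF 2). RPL10L varied most between pgEpiSC 3 and 4, and RPL36AL hardly varied at all among pgEpiSC. RACK1, the scaffold protein on the small subunit, had 390, 708, 492 and 391 TPM in pgEpiSC, against 204 and 282 TPM in pEF, without overlap, and was not called (0.9995 ± 0.40, limma adjusted p = 0.0570; 0.0407 without pgEpiSC 2). RPL10 and RPL36A matched no row by symbol, and rows without a symbol may hold them. The ratios of these pairs were not analysed here, and how reads were shared within them was not tested.

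**Figure D5:**
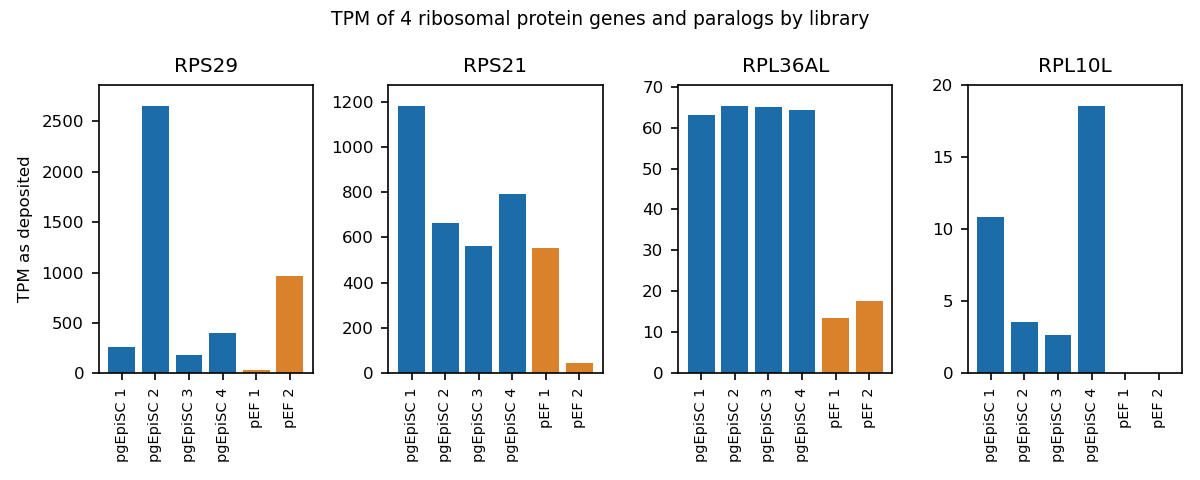
TPM as deposited (y axes, linear, each from 0) by library (x axes) for RPS29, RPS21, RPL36AL and RPL10L; blue bars are pgEpiSC libraries and orange bars pEF libraries. RPL36AL lies between 63.1 and 65.3 TPM in pgEpiSC, while RPS29 ranges from 186 to 2655 TPM.

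Genes that make, use or regulate ribosomes were read from 8 further lists, set beside the 18.0% of all tested genes called higher and 9.43% called lower as deposited, with a median fold of 0.48. Of 49 tested ribosome biogenesis genes, 27 rose and 0 fell in pgEpiSC (median fold 1.56). Relative to the summed ribosomal proteins, 19 of them were called higher and 3 lower, against 10.9% and 30.5% of all tested genes, with a median of 0.65. GNL3, a nucleolar GTPase known from stem cells, had 53.1, 76.7, 73.0 and 60.3 TPM in pgEpiSC, against 5.29 and 8.10 TPM in pEF (3.13 ± 0.48, limma adjusted p = 2.86e-06). NOP56, a core protein of the box C/D particles that guide methylation of ribosomal RNA, had 43.0, 87.7, 66.1 and 46.1 TPM in pgEpiSC, against 6.70 and 10.2 TPM in pEF (2.68 ± 0.49, limma adjusted p = 5.20e-05). Both were called with each library left out in turn, on the deposited scale and relative to the sum. LYAR (2.88), FBL, the methylating enzyme fibrillarin (2.73), and NCL, nucleolin (2.29), were called as deposited, but not without pEF 1 (limma adjusted p = 0.0517, 0.109 and 0.123). The summed ribosomal proteins stood at 32.5, 19.6, 23.7 and 34.3 times the summed biogenesis genes in pgEpiSC, against 52.0 and 42.2 times in pEF, without overlap. The count of 27 was 21 to 33 without a pgEpiSC library, 4 without pEF 1 and 14 without pEF 2. After median-ratio scaling 35 of the 49 were called higher and 2 lower, against 27.0% and 30.9% of all tested genes.

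For RNA polymerase I, which transcribes the ribosomal RNA genes, 6 of 16 tested genes rose (37.5%) and 0 fell (median 1.17). TAF1D, of its promoter selectivity factor, had 56.1, 92.9, 98.1 and 66.2 TPM in pgEpiSC, against 11.2 and 15.1 TPM in pEF (2.46 ± 0.47, limma adjusted p = 0.000102), and held with each library left out in turn. Of all tested genes 18.0% were called higher, and of those with a mean of at least 5 TPM 28.7%. The shares in the next lists were close to the latter. Of 20 translation initiation and elongation factors 6 rose (30%) and 0 fell (median 1.08). Of 9 ribosomal protein chaperones and importins 2 rose (22.2%) and 0 fell (median 1.09). Of 63 mitochondrial ribosomal proteins 17 rose (27.0%) and 0 fell (median 1.06). These counts of risen genes were 1, 0, 0 and 0 without pEF 1, 1, 3, 1 and 3 without pEF 2, and 4, 3, 0 and 5 without pgEpiSC 3. EIF4A1, the helicase of the cap-binding complex, was among the called factors (1.73 ± 0.43, limma adjusted p = 0.00206; 0.153 without pEF 1). The summed cytosolic members stood at 30.3 ± 5.12 times the summed mitochondrial ones in pgEpiSC (SD, n = 4) and at 28.4 ± 1.82 times in pEF (SD, n = 2), with overlapping groups.

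Other genes known to carry a TOP tract mostly had folds above 0 as deposited, except VIM and TPT1. Of 17 tested, 15 had a fold above 0, against 68.3% of all tested genes, and 7 rose and 1 fell in pgEpiSC. Their median fold was 1.15, against 1.19 for the members, and 0.01 relative to the summed ribosomal proteins. NPM1, the nucleolar protein nucleophosmin, had 364, 498, 400 and 360 TPM in pgEpiSC, against 35.5 and 55.7 TPM in pEF (3.15 ± 0.42, limma adjusted p = 1.42e-07). VIM, the mesenchymal filament protein vimentin, had 31.0, 67.4, 43.6 and 30.5 TPM in pgEpiSC, against 759 and 880 TPM in pEF (-4.29 ± 0.45, limma adjusted p = 4.61e-10). Both calls held with each library left out in turn, and the 2 genes lay on opposite sides of the members. TPT1, the most abundant of the list by its mean, had 208, 651, 331 and 226 TPM in pgEpiSC, against 412 and 502 TPM in pEF, with overlapping groups (-0.52, limma adjusted p = 0.377; called at -0.86 without pgEpiSC 2, adjusted p = 0.0298). Relative to the summed ribosomal proteins it was lower by -1.69 ± 0.29 (limma adjusted p = 0.000914), also with each library left out in turn. The count of 7 was 3 without pgEpiSC 3, 1 without pEF 1 and 4 without pEF 2.

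Of 18 tested MYC and mTORC1 genes, 2 rose and 2 fell in pgEpiSC (median fold 0.30, or -0.15 once scaled by median ratios), and 0 were called in either direction with either pEF library left out. MYCN, a transcription factor that drives ribosome production, had 3.53, 19.7, 8.58 and 4.04 TPM in pgEpiSC, against 0.0122 and 0.0299 TPM in pEF (3.01 ± 0.59, limma adjusted p = 0.000152; 0.0644 and 0.0520 without pEF 1 or pEF 2). MXD4, a MAX partner that opposes MYC, had 3.99, 14.7, 7.44 and 4.30 TPM in pgEpiSC, against 22.0 and 29.0 TPM in pEF (-1.77 ± 0.54, limma adjusted p = 0.0128; 0.156 and 0.215 without pEF 1 or pEF 2). Both genes had groups that did not overlap. Of 7 genes of the p53 arm that free ribosomal proteins act on, 0 rose and 4 fell (median -1.66), and 2 fell with either pEF library left out. CDKN1A, the cell cycle inhibitor p21, had 3.26, 33.2, 3.09 and 1.22 TPM in pgEpiSC, against 143 and 226 TPM in pEF (-4.91 ± 0.64, limma adjusted p = 8.70e-08), and held with each library left out in turn. MDM2, which RPL5 and RPL11 bind, had 3.56, 12.3, 5.37 and 3.03 TPM in pgEpiSC, against 18.4 and 19.2 TPM in pEF (-1.66 ± 0.55, limma adjusted p = 0.0221), a call lost without pgEpiSC 3, pgEpiSC 4 or either pEF library at 0.0630 to 0.245.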

How the data were processed

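Expression of 4 pgEpiSC and 2 pEF libraries was read from 1 table of TPM deposited by the authors, per the file headers, holding 1 column per library and 20132 Ensembl gene rows. The submitters' processing notes name STAR 2.6.0c and kallisto 0.44.0 without a role; genome build and annotation: not given in the sources used here. Per the labels, libraries averaged 127.83 M raw and 126.01 M high-quality 150-bp reads. Depth per library is unknown, so counting intervals are not given.

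Symbols came from the gene name table (69.8% of rows matched, 6070 did not), and the 2 rows sharing a symbol were summed. Genes at 1 TPM or more in at least 2 libraries (10424) were fitted on log2(TPM + 1), which understates the change of low genes. The fit used limma 3.58.1 (R 4.3.3) with a group term and a moderated variance with trend, and a gene was called when its Benjamini-Hochberg adjusted p, over all 10424, was below 0.05. A second fit scaled each library to an equal sum of the 44 members. The fits were tested on simulated data, with changes placed in genes drawn at random from outside the members. Most changes of the size of the members' folds were missed there. Noise was drawn separately for each gene, without the differences between libraries that the real genes share. The outcome therefore does not measure how often changes in members would be missed. A gene not called is not shown to be alike in the groups. Versions were Python 3.11.15, pandas 2.3.3, scipy 1.17.1, numpy 2.4.6 and matplotlib 3.10.9. P-values measure the spread between these libraries.

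Alternatives were pseudocounts of 0.1 and 5, no filter, a mean of at least 5 TPM, a variance without trend or robust, a replicate block, each library left out, scaling by median ratios, by quantiles or to a total of 1000000, and other denominators for the sum. The replicate block compared the groups through replicates 1 and 2 only, since the higher replicate numbers occur in pgEpiSC alone. Leaving RPS29 and RPS21 out, and median-ratio scaling with each library left out, were chosen after seeing the data.

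Named members were the 10 most abundant, those called relative to the sum, stalk, 5S and paralog genes, up to 10 whose shares did not overlap, and the 3 lowest. Related lists gave up to 4 called genes, up to 2 against the rest and the most abundant; not all are printed, and some members are not reported here by name. RPS29, RPS21, FAU and RPS27L were added after seeing values, as were further names given in counts. The members and lists were chosen with earlier results of these data known.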

Additional observations from a re-analysis of the deposited data

Results flagged for a closer look

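Over the 44 members and the sums, 92 sets of 4 pgEpiSC values were examined for a library whose gap to the nearest other, over the whole range, exceeded the 95% critical value of Dixon. It did in 7 of them (7.6%). Independent sets of normal values would give about 1 in 20. These sets share the same libraries, and each gene entered by TPM and by share, so that rate is no yardstick here. On the TPM scale, pgEpiSC 2 stood apart in RPL11 (1784 TPM), RPL35 (107 TPM) and RPS29 (2655 TPM). As a share of the summed members, pgEpiSC 2 stood apart in RPS29 (7.29%) on the high side and in RPL37 (0.650%) on the low side. In pgEpiSC 1 the shares of RPS28 (9.998%) and RPSA (0.950%) lay above those of the other pgEpiSC libraries.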

How the results depend on the processing

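As deposited, 26 members were called higher; the count was 11 with no filter on low values, 6 after rescaling to 1000000, 9 after quantile normalization, 1 after median-ratio scaling and 3 to 27 with a library left out, or 0 to 3 with both. With 0 lower as deposited, 1 was lower after rescaling (RPL28) and 4 after quantile normalization (RPL28, RPLP0, RPS28 and RPS15). Relative to the sum, the 1 higher call was 0 without a variance trend, 2 with a replicate block and 0 to 7 with a library left out, and the 3 lower calls were 1 with no filter and 1 to 8 with a library left out. The cause was not tested. The ribosomal protein share rose by 3.09 percentage points over all listed genes and by 9.50 over genes with a symbol; it kept its direction with each library left out, at 2.30 to 3.87, as did the stalk protein share of summed ribosomal protein TPM at -2.34 to -1.88.

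Signs of deposited folds turned under scaling. After quantile normalization RPS28 was -0.63, RPS15 -0.62, RPL11 -0.026, RPS24 -0.28, RPLP0 -0.53, RPL29 -0.18, RPS3 -0.40, RPL23A -0.038 and RPLP2 -0.17. Of these, RPS28, RPS15 and RPLP0 were called lower there (limma adjusted p = 0.0334, 0.0491 and 0.0312). After rescaling to 1000000 RPS15 was -0.070, RPLP0 -0.26, RPL29 -0.16, RPS3 -0.36, RPL23A -0.18 and RPLP2 -0.31. After median-ratio scaling RPLP0 was -0.10, RPS3 -0.20, RPL23A -0.017 and RPLP2 -0.15. RPL28 was 0.015 with the replicate block.

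The replicate numbers were not stated to pair libraries across groups, and deviations of same-numbered libraries correlated at 0.10 and 0.17. With the block 34 members were called higher and 0 lower as deposited, and 2 and 2 relative to the sum. The group difference in the block fit rests on replicates 1 and 2 of each kind, so these counts are not a check over all libraries. Only 2 pEF libraries limit every comparison. TPM hides depth, and 35 of 77 ribosomal proteins matched no symbol, so shares refer to the 44 genes found.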
